A study of Mus musculus with 64 samples.

Results

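The genes examined were 10 that encode subunits of the mouse Polycomb complexes: Ezh1, Ezh2, Eed, Suz12 and Jarid2 of Polycomb repressive complex 2 (PRC2), and Ring1, Rnf2, Bmi1, Cbx2 and Cbx7 of Polycomb repressive complex 1 (PRC1). They were taken by symbol from count tables of 23338 genes, in which all 10 were found, and were followed across the 4 stages of a study of sex differences in development. Messenger RNA levels came from 64 RNA-seq libraries of C57BL/6 mice: 12 individual eight-cell embryos (6 male, 6 female), 4 ES cell lines kept in 2i (2 male, 2 female), 24 fetal livers (12 male, 12 female) and 24 adult livers (12 male, 12 female). The labels name no transgene and no treatment of the animals. Embryos were collected at 2.5 days post-coitum after natural mating, fetuses late in gestation, and adults at 15 to 20 weeks of age. The ES cell lines were derived from eight-cell embryos under 2 kinase inhibitors (2i), which hold cells in a naive pluripotent state, so each line stands for a single embryo.

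Polycomb complexes keep developmental genes silent. PRC2 places methyl groups on lysine 27 of histone H3 through a SET-domain enzyme, either EZH2 or its paralog EZH1, which needs the scaffold proteins EED and SUZ12. EZH2 is known as the form of dividing and embryonic cells and EZH1 as the form that persists in resting adult tissue. PRC1 carries an E3 ubiquitin ligase, RING1 or its paralog RNF2, paired with a PCGF protein such as BMI1, and in canonical complexes a CBX protein reads the mark made by PRC2.

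The promoters of the paralogous enzyme genes are shown because the balance of these genes runs through the results. Each run covers 250 bases before and 50 bases after the transcription start in RefSeq on GRCm38.p6, read 5′ to 3′ on the minus strand on which both genes lie. Capitals in the first run mark its match to the E2F motif, searched on both strands as TTTCGCGC or TTTGGCGC.
Ezh2, chr6:47594981-47595280: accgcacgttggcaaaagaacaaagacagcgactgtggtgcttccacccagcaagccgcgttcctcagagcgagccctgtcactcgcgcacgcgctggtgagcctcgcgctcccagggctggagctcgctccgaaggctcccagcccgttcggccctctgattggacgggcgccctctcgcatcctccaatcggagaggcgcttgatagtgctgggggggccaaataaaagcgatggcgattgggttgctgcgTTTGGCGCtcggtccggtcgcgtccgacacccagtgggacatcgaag
Ezh1, chr11:101226414-101226713: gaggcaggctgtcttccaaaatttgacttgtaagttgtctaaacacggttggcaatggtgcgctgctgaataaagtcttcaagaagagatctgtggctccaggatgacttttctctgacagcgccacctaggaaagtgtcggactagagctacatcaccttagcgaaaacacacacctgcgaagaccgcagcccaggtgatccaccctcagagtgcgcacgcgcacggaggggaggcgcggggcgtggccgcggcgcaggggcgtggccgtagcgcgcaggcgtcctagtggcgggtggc
The Ezh2 window held 1 match to that motif, and the Ezh1 window held none. Among all 32851 RefSeq promoter windows of this length, 0.813% held a match. The Ezh2 window had a GC content of 64.3% and 31 CpG dinucleotides, the Ezh1 window 59.3% and 23, against medians of 52.7% and 7 over all windows. The second motif searched, the E-box CACGTG, was in neither window and in 7.15% of all. Of the other members with an entry, none held the E2F motif and Bmi1 held 1 E-box, and Cbx2 had no entry. A match is a description of the letters in a window and not a test of binding. On GRCm38 (mm10), the build that the reads were aligned to, Ezh2 spans 47530139 to 47595341 of chromosome 6 and Ezh1 spans 101191115 to 101226463 of chromosome 11.

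Reads on genes numbered 9857929 to 10386931 in ES cell lines, 4659656 to 7725432 in eight-cell embryos, 1567583 to 4757610 in adult livers and 5145371 to 8499603 in fetal livers, so adult values rest on the fewest reads. Embryo cDNA was amplified by a single-cell protocol and all other libraries used a stranded total RNA kit, and the effects of protocol and of stage cannot be told apart wherever eight-cell embryos enter a comparison. Marker genes were checked against the labels. Albumin (Alb) stood at 13539 to 18618 CPM (reads per 1000000 reads on genes) in fetal liver and 20717 to 36234 CPM in adult liver, and the pluripotency factor Nanog at 356 to 414 CPM in ES cells. Levels are given as CPM with library sizes scaled by the TMM method over all 64 libraries, and as CPM per kilobase of exon where genes are set against each other. In bulk samples, fewer cells of a type and less RNA per cell cannot be told apart. The study drew its eight-cell embryos from fewer litters than embryos, so some shared a litter, and the labels tie no embryo or fetus to one. The p-values therefore measure the spread between these samples and take no account of litter.

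**Figure D1:**
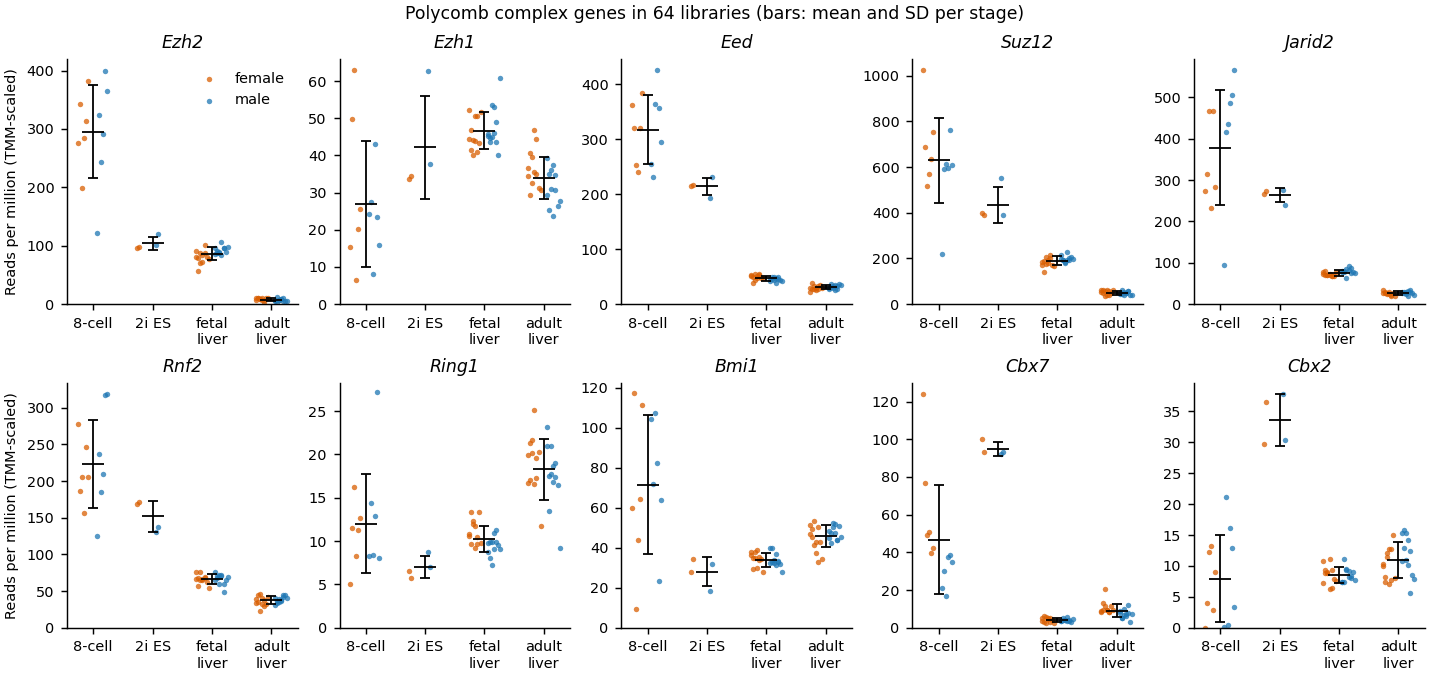
Levels of the 10 Polycomb complex genes in every library, as TMM-scaled CPM on axes that start at 0, by stage and with females and males in separate colours. Black bars give the mean and SD per stage. Ezh2 fell from 95.9 to 121 CPM in ES cells and 57.1 to 107 CPM in fetal livers to 3.62 to 11.5 CPM in adult livers, while Ezh1 lay between 6.45 and 63.1 CPM in all libraries.

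Ezh2 encodes the main H3K27 methyltransferase of dividing cells, and its RNA was lower at each later stage of the series. The 12 eight-cell embryos had 123 to 400 CPM of Ezh2 with a median of 302, equal to 781 to 2507 reads. The ES cell lines, here and for each gene with male lines 1 and 2 before female lines 3 and 4, had 102, 121, 95.9 and 98.4 CPM. Each ES cell line was below each eight-cell embryo. Fetal livers had 57.1 to 107 CPM with a median of 87.6, a range that held 3 of the 4 ES cell lines. Adult livers had 3.62 to 11.5 CPM with a median of 7.98, which rested on only 8 to 39 reads per library. No adult liver reached the lowest fetal liver.

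Between fetal and adult liver, Ezh2 fell by 3.37 on the log2 scale (standard error 0.0821, 10.35-fold, edgeR quasi-likelihood test with Benjamini-Hochberg adjusted p = 8.92e-41). From eight-cell embryos to ES cells it fell by 1.52 (standard error 0.246, edgeR adjusted p = 5.55e-05). ES cells and fetal livers were closer, with a log2 difference (ES cells minus fetal liver) of 0.37 (standard error 0.078, edgeR adjusted p = 5.42e-05), below the 2-fold threshold set for a call between stages. From eight-cell embryos to adult livers the whole range was 35.5-fold.

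Ezh1, the paralog, showed no such decline. The 12 eight-cell embryos had 6.45 to 63.1 CPM with a median of 23.8. The ES cell lines had 62.6, 37.8, 33.5 and 34.6 CPM, so male line 1 lay apart. Fetal livers had 40.0 to 60.9 CPM with a median of 45.2, and adult livers had 23.8 to 46.8 CPM with a median of 34.7. The ranges of all 4 stages overlapped, although 3 of the ES cell lines lay below and 1 above the fetal livers. No pair of stages passed the threshold for Ezh1 in the edgeR fits of both sexes together with TMM scaling. Fetal livers against eight-cell embryos had a log2 difference of 0.86 there, and passed with DESeq2 (1.31, DESeq2 adjusted p = 1.32e-11), with its size factors in edgeR (1.30) and in males alone (1.05). Adult livers against ES cells passed with library totals (-1.03). Adult livers were lower than fetal livers by 0.35 on the log2 scale (standard error 0.0561, edgeR adjusted p = 9.07e-08), which is 1.28-fold. ES cells and fetal livers differed by -0.05 (standard error 0.104, edgeR adjusted p = 0.674), with a 95% interval of -0.25 to 0.16.

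The balance of the paralogous enzymes can be read within each library as the ratio of Ezh2 to Ezh1 reads, which needs no scaling between libraries. Ezh2 had more reads than Ezh1 in 12 of 12 eight-cell embryos, 4 of 4 ES cell lines and 24 of 24 fetal livers. In adult liver it had more in 0 of 24. The log2 ratio was 3.67 ± 1.10 (SD, n = 12) in eight-cell embryos, with a range of 1.66 to 5.45. It was 1.35 ± 0.44 (SD, n = 4) in ES cells and 0.89 ± 0.23 (SD, n = 24) in fetal livers. In adult livers it was -2.10 ± 0.46 (SD, n = 24), between -2.88 and -1.38. Per kilobase of exon, Ezh2 stood at 2.77 times Ezh1 in fetal liver, with a range of 1.83 to 3.74, and at 0.348 times Ezh1 in adult liver, with a range of 0.203 to 0.576.

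The fall of the Ezh2 to Ezh1 ratio between fetal and adult liver was 2.99 on the log2 scale, or 7.96-fold, and the ranges did not overlap (two-sided permutation test of 100000 resamples, p = 2e-05, the smallest it can give, adjusted p = 6.67e-05 over the 10 tests of this ratio). ES cells lay above fetal livers by 0.46 (exact two-sided permutation test, p = 0.00606, adjusted p = 0.0101), with overlapping ranges. Without the male ES cell line 2 that difference was 0.35 and the adjusted p of the exact permutation test was 0.0595. ES cells lay below eight-cell embryos by 2.32 (exact two-sided permutation test, p = 0.0022, adjusted p = 0.0044), and the lowest embryo fell within the range of the lines. Between the sexes this ratio passed the threshold at no stage, with adjusted p-values of 0.145 to 1 in permutation tests. A permutation of 2 lines against 2 cannot give less than 0.333.

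**Figure D2:**
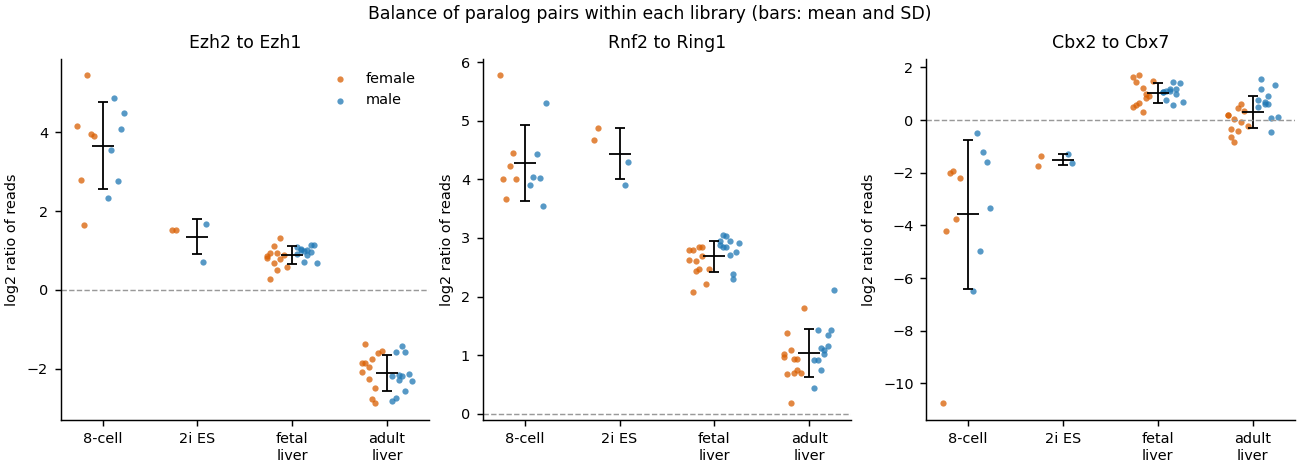
Log2 ratio of reads for the paralog pairs Ezh2 to Ezh1, Rnf2 to Ring1 and Cbx2 to Cbx7 in each library, by stage, with the mean and SD as black bars and equal reads as a dashed line. The Ezh2 to Ezh1 ratio crosses the line between fetal liver (mean 0.89) and adult liver (mean -2.10), the Rnf2 to Ring1 ratio stays above it, and the Cbx2 to Cbx7 ratio is below it in eight-cell embryos and ES cells.

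Marker genes of dividing cells and of other cell types moved with this result in the livers. The summed level of 10 proliferation markers was 4055 to 6167 CPM in fetal livers and 17.4 to 81.6 CPM in adult livers, with each marker detected at both stages. The 8 erythroid markers summed to 3640 to 5428 CPM in fetal livers and 19.1 to 242 CPM in adult livers. Most of the adult sum was Alas2, the heme synthesis gene, at 118 ± 91.9 CPM (SD, n = 24). The sum split by sex, with 19.1 to 56.9 CPM in females and 189 to 242 CPM in males. Of these markers, the globin genes Hba-a1 and Hbb-b1 were at 0 in every adult liver and at most 0.154 CPM in fetal livers as well. The 8 hepatocyte markers summed to 68075 to 83592 CPM in adult livers, above the 26008 to 35401 CPM of fetal livers. Their part in the fall of Ezh2 was not tested. Among 11433 other genes averaging 5 CPM or more, the 5 with log2 levels most like those of Ezh2 over the 64 libraries were Plk1, Hmgb2, Ccnb1, Phgdh and Pbk, with Pearson r from 0.978 to 0.982. Plk1 and Ccnb1 encode regulators of mitosis and Hmgb2 a chromatin protein of dividing cells. The 5 most like Ezh1 were Rev1, Nek1, Sesn1, Lamb1 and 3110056O03Rik, with r from 0.769 to 0.809. The libraries fall into 4 stages, so these values describe shared stage levels and have no test.

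Eed and Suz12, the scaffold subunits that every PRC2 contains, were highest in eight-cell embryos and lowest in adult liver. Eed (chromosome 7, 89954654 to 89980983, minus strand) had 231 to 425 CPM in eight-cell embryos, with a median of 320, and 193, 232, 215 and 216 CPM in the ES cell lines. Fetal livers had 38.1 to 54.6 CPM with a median of 47.3, and adult livers had 22.4 to 38.5 CPM with a median of 30.1. The step in Eed lay between ES cells and fetal liver, where each ES cell line was above each liver and the log2 difference was 2.29 (standard error 0.0535, edgeR adjusted p = 2.42e-27). Fetal and adult livers differed in Eed by 0.50 on the log2 scale (standard error 0.0487), which passed the test (edgeR adjusted p = 4.70e-14) but not the 2-fold threshold.

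Suz12 (chromosome 11, 79993106 to 80034123, plus strand) had 217 to 1023 CPM in eight-cell embryos with a median of 610, and 550, 391, 399 and 389 CPM in the ES cell lines. Fetal livers had 140 to 226 CPM with a median of 194, and adult livers had 36.9 to 63.7 CPM with a median of 50.3. All adult livers were below all fetal livers, and all ES cell lines were above all fetal livers. Between fetal and adult liver Suz12 fell by 1.80 on the log2 scale (standard error 0.0549, edgeR adjusted p = 5.32e-36), more than Eed did and less than Ezh2. ES cells exceeded fetal livers by 1.29 (standard error 0.0666, edgeR adjusted p = 4.29e-18). Neither scaffold gene passed the 2-fold threshold between eight-cell embryos and ES cells. Exons of Ezh2, Eed and Suz12 overlap a noncoding gene on the other strand over 92, 261 and 178 bases.

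Jarid2 encodes an accessory subunit that helps PRC2 find and stimulate its targets. It lies on the plus strand of chromosome 13, from 44729474 to 44921643. Jarid2 had 94.5 to 565 CPM in eight-cell embryos with a median of 426, and 277, 240, 267 and 273 CPM in the ES cell lines. Fetal livers had 63.1 to 92.1 CPM with a median of 75.9, and adult livers had 19.6 to 34.6 CPM with a median of 26.6. As for Suz12, the livers of the 2 ages did not overlap, and neither did ES cells and fetal livers. Jarid2 fell by 1.38 on the log2 scale between fetal and adult liver (standard error 0.0418, edgeR adjusted p = 3.27e-36) and was 1.91 higher in ES cells than in fetal liver (standard error 0.051, edgeR adjusted p = 7.63e-26).

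Per kilobase of exon, the order of the PRC2 genes changed with age. In eight-cell embryos the mean was 153 ± 30.5 for Eed, 144 ± 42.5 for Suz12, 105 ± 28.3 for Ezh2, 61.5 ± 22.4 for Jarid2 and 6.42 ± 4.05 for Ezh1 (CPM per kilobase, SD, n = 12). Ezh2 ranked 2 among the 10 members in fetal liver, at 31.0 ± 3.88 (SD, n = 24), and 10 in adult liver, at 2.83 ± 0.808 (SD, n = 24). Ezh1 ranked 6 in both, at 11.1 ± 1.21 (SD, n = 24) in fetal liver and 8.10 ± 1.37 (SD, n = 24) in adult liver. In adult liver Eed (14.9 ± 1.98, SD, n = 24) and Suz12 (11.6 ± 1.95, SD, n = 24) remained above both enzymes per kilobase. Cbx7 (3.11 ± 1.15), Cbx2 (2.88 ± 0.774) and Ezh2 in adult liver lay within one another's SD. These ranks rest on the exon length of GENCODE transcripts matched to RefSeq, and coverage along exons was not examined.

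**Figure D3:**
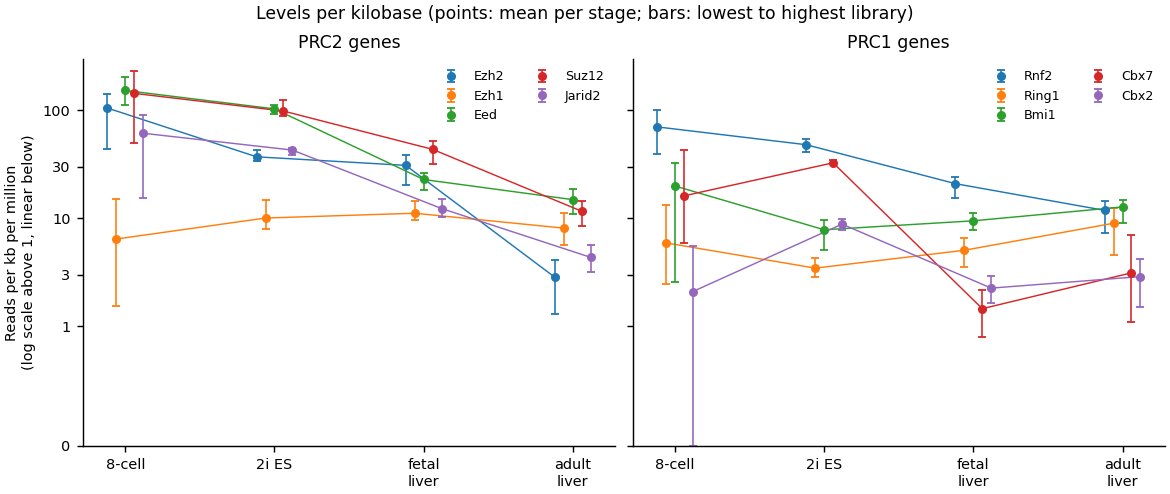
Levels per kilobase of exon (CPM per kilobase, log scale above 1 and linear below) for the PRC2 genes and the PRC1 genes, by stage, with points at the mean and bars from the lowest to the highest library. Ezh2 drops from a mean of 31.0 in fetal liver to 2.83 in adult liver, below Ezh1 (8.10), and Cbx7 is the gene called higher in adult than in fetal liver with TMM scaling.

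Of the ubiquitin ligase genes of PRC1, Rnf2 had lower levels at the later stages and Ring1 did not. Rnf2 (chromosome 1, 151458004 to 151500955, minus strand) had 125 to 319 CPM in eight-cell embryos with a median of 208, and 131, 137, 169 and 171 CPM in the ES cell lines. Fetal livers had 48.5 to 76.0 CPM with a median of 67.1, and adult livers had 22.9 to 46.0 CPM with a median of 37.9. The 2 liver groups did not overlap, yet the log2 difference (adult minus fetal) of -0.72 (standard error 0.0541, edgeR adjusted p = 4.27e-18) stayed within 2-fold. ES cells were above fetal livers by 1.31 (standard error 0.0708, edgeR adjusted p = 1.44e-17).

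Ring1 (chromosome 17, 34020792 to 34024680, minus strand) had the lower mean level per kilobase of the 2 ligases at each stage. It had 5.02 to 27.2 CPM in eight-cell embryos (median 11.4) and 8.70, 6.97, 6.57 and 5.79 CPM in the ES cell lines. Fetal livers had 7.22 to 13.4 CPM with a median of 9.87, and adult livers had 9.24 to 25.2 CPM with a median of 18.2. It was higher in each adult liver than in each ES cell line, by 1.38 on the log2 scale (standard error 0.143, edgeR adjusted p = 4.82e-11). Against fetal liver the log2 difference in adult liver was 0.96 (standard error 0.0665, edgeR adjusted p = 1.40e-19), just within 2-fold.

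The log2 ratio of Rnf2 to Ring1 reads was 4.28 ± 0.652 (SD, n = 12) in eight-cell embryos, 4.44 ± 0.429 (SD, n = 4) in ES cells, 2.69 ± 0.265 (SD, n = 24) in fetal livers and 1.03 ± 0.414 (SD, n = 24) in adult livers. Rnf2 had more reads in all 64 libraries. Per kilobase it stood at 13.95 times Ring1 in ES cells and 1.32 times in adult livers, where the lowest library was at 0.729. The log2 ratio differed by -1.65 between adult and fetal livers (two-sided permutation test, p = 2e-05, adjusted p = 6.67e-05), and their ranges overlapped at the edge. ES cells and eight-cell embryos differed by 0.16 (exact permutation test, adjusted p = 0.682), less than the SD of either group.

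Bmi1 encodes the PCGF4 partner of the ligase and is known for repressing the Ink4a/Arf locus in stem cells. The gene lies on the plus strand of chromosome 2, from 18677018 to 18686629. Bmi1 had 9.26 to 117 CPM in eight-cell embryos with a median of 68.2, and 18.2, 31.7, 27.9 and 34.6 CPM in the ES cell lines. Fetal livers had 27.8 to 39.9 CPM with a median of 33.9, and adult livers had 32.8 to 53.5 CPM with a median of 46.2. Bmi1 was lower in ES cells than in eight-cell embryos by 1.36 on the log2 scale (standard error 0.491, edgeR adjusted p = 0.0245), although the embryos spanned the range of the lines. This call was lost without any 1 of 3 ES cell lines, with edgeR adjusted p from 0.0526 to 0.089 without male 1, male 2 or female 3. It was also lost with DESeq2 (DESeq2 adjusted p = 0.0528), and in edgeR with the size factors of DESeq2 (adjusted p = 0.0793), library totals (adjusted p = 0.0916) and females alone (adjusted p = 0.321). In the livers Bmi1 had a log2 difference (adult minus fetal) of 0.54 (standard error 0.0489, edgeR adjusted p = 5.73e-15). Without TMM scaling that value was -0.03.

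Cbx7 and Cbx2 encode alternative chromodomain readers, with CBX7 known as the main form of ES cells and CBX2 of differentiating cells. Cbx7 (chromosome 15, 79915807 to 79971119, minus strand) had 17.1 to 124 CPM in eight-cell embryos with a median of 39.1, and 92.4, 93.3, 100 and 93.4 CPM in the ES cell lines. Fetal livers had 2.62 to 6.20 CPM with a median of 4.19, from 21 to 50 reads. Adult livers had 3.18 to 20.5 CPM with a median of 8.71, from 6 to 52 reads. Cbx7 had the largest difference of the 10 genes between ES cells and fetal liver, at 4.60 on the log2 scale (standard error 0.105, 24.3-fold, edgeR adjusted p = 1.20e-27). It was the only member called higher in adult than in fetal liver, by 1.22 (standard error 0.114, edgeR adjusted p = 1.53e-14), although 21 of 24 fetal livers lay within the adult range. The value was 0.66 without TMM scaling and 0.96 in males alone, both under the 2-fold threshold. Between ES cells and eight-cell embryos it was 1.15 higher in ES cells (standard error 0.296, edgeR adjusted p = 0.00302). In females alone that value was 0.67 and was not a call (edgeR adjusted p = 0.249). Exons of Cbx7 overlap Apobec3 on the other strand over 100 bases, and the strand setting of the counting is not given in the sources used here. Apobec3 itself had 2.74 ± 1.70 CPM (SD, n = 24) in adult and 29.3 ± 3.24 CPM (SD, n = 24) in fetal livers, opposite in direction to Cbx7. It had 55.3 ± 1.39 CPM (SD, n = 4) in ES cells and 15.3 ± 7.20 CPM (SD, n = 12) in eight-cell embryos, and in adult livers 3.36 ± 1.83 CPM in females and 2.11 ± 1.35 CPM in males (SD, n = 12 each). In those comparisons, of ES cells with fetal livers or embryos and of the sexes in adult liver, its means differed in the same direction as those of Cbx7. The part of the shared exon stretch in the Cbx7 values was not tested.

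Cbx2 (chromosome 11, 119022962 to 119031270, plus strand) had 29.7 to 37.8 CPM in the ES cell lines, namely 37.8, 30.3, 29.7 and 36.6. Eight-cell embryos had 0 to 21.1 CPM with a median of 6.52, and 1 embryo, female 7, had no Cbx2 read. Fetal livers had 6.20 to 11.2 CPM with a median of 8.60, and adult livers had 5.69 to 15.8 CPM with a median of 10.9. Each ES cell line was above each library of every other stage. Against fetal liver the log2 difference was 2.08 (standard error 0.096, edgeR adjusted p = 2.03e-19). Against eight-cell embryos it was also 2.08, but with a standard error of 0.891 and an edgeR adjusted p of 0.0538 it did not pass. It passed with DESeq2 (2.44, DESeq2 adjusted p = 0.0167), and in edgeR with the size factors of DESeq2 (adjusted p = 0.0239), with library totals (adjusted p = 0.0222) and in 1 fit of all stages (adjusted p = 7.64e-06). It also passed in edgeR without eight-cell embryo male 1 (1.96, adjusted p = 0.0465) or without female 7 (1.94, adjusted p = 0.038), which were left out after the data were seen.

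The log2 ratio of Cbx2 to Cbx7 reads was -1.504 ± 0.219 (SD, n = 4) in ES cells, 1.04 ± 0.374 (SD, n = 24) in fetal livers and 0.30 ± 0.62 (SD, n = 24) in adult livers. Eight-cell embryos had -3.58 ± 2.84 (SD, n = 12), from -10.76 to -0.50, with 0 to 138 Cbx2 reads per embryo. Cbx7 had more reads than Cbx2 in 4 of 4 ES cell lines, and Cbx2 had more in 24 of 24 fetal livers and 17 of 24 adult livers. ES cells lay 2.54 below fetal livers (exact two-sided permutation test, p = 9.77e-05, the smallest it can give, adjusted p = 0.000195), with no overlap.

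Counted together, 3 of the 10 genes were called lower in adult than in fetal liver (Ezh2, Suz12 and Jarid2) and 1 higher (Cbx7), at an edgeR adjusted p under 0.05 and a change above 2-fold. Of all 12647 genes tested, 23.2% were called lower and 19.4% higher, so the members' shares were near the background. Their median log2 difference was -0.43, against -0.04 over all genes. With library totals in place of TMM, 1439 genes were called higher and 4662 lower, against 2448 and 2939 with TMM. The median over all genes was then -0.61 and the members counted were 5 lower, with Eed and Rnf2 added, and 0 higher. Ezh2, Suz12 and Jarid2 were lower in both.

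Of the 10 genes, 6 were called higher in ES cells than in fetal liver (Eed, Suz12, Jarid2, Rnf2, Cbx2 and Cbx7) and 0 lower by edgeR or DESeq2, with 1 lower at an unadjusted p under 0.05, against 23.8% higher and 32.4% lower among the 14333 genes tested. The median of the members was 1.30 on the log2 scale and that of all genes -0.03. The members not called were Ezh2, Ezh1, Ring1 and Bmi1. In ES cells against eight-cell embryos edgeR called 1 higher (Cbx7) and 2 lower (Ezh2 and Bmi1), while DESeq2, and edgeR with library totals, each called 2 higher and 1 lower, and females alone gave 0 higher and 1 lower. These counts stand against 31.4% higher and 21.5% lower of all genes. Here the median over all genes was itself 0.44 with TMM and 0.83 with library totals, and that of the members -0.55.

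The remaining pairs of stages place the members in order. In adult liver against ES cells 7 were called lower and 1 higher (Ring1), beside 31.3% lower and 33.3% higher of all genes. The log2 differences of the 7 ran from -1.61 for Cbx2 to -3.75 for Ezh2, with Rnf2, Eed, Suz12, Jarid2 and Cbx7 between. With library totals Ring1 was not called, and of all genes 5616 were lower and 3224 higher, against 3942 and 4194 with TMM. In fetal liver against eight-cell embryos 7 were called lower and 0 higher by edgeR (1 higher at an unadjusted p under 0.05), and DESeq2 called 6 lower and 1 higher, beside 22.7% lower and 51.4% higher of all genes in edgeR. These 7 were Bmi1 (-1.02), Suz12 (-1.67), Rnf2 (-1.69), Ezh2 (-1.71), Jarid2 (-2.26), Eed (-2.69) and Cbx7 (-3.35). The call of Bmi1 was lost with DESeq2 (-0.57), its size factors in edgeR (-0.57), library totals (-0.97), no expression filter (-0.99) and females alone (-0.93). In adult liver against eight-cell embryos 6 were called lower and 0 higher by edgeR (2 higher at an unadjusted p under 0.05), and DESeq2 called 6 lower and 2 higher, beside 27.7% lower and 47.7% higher of all genes in edgeR. These 6 were Cbx7 (-2.21), Rnf2 (-2.49), Eed (-3.27), Suz12 (-3.54), Jarid2 (-3.74) and Ezh2 (-5.15). The comparisons share libraries and are not independent of one another. The order eight-cell embryo, ES cell, fetal liver, adult liver held for the mean CPM of 5 genes (Ezh2, Eed, Suz12, Jarid2 and Rnf2). The share of all genes with this order was not counted. Among neighbouring stages of these 5 genes, eight-cell embryos and ES cells differed past the threshold for Ezh2 alone. ES cells and fetal livers did so for Eed, Suz12, Jarid2 and Rnf2, and fetal and adult livers for Ezh2, Suz12 and Jarid2.

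**Figure D4:**
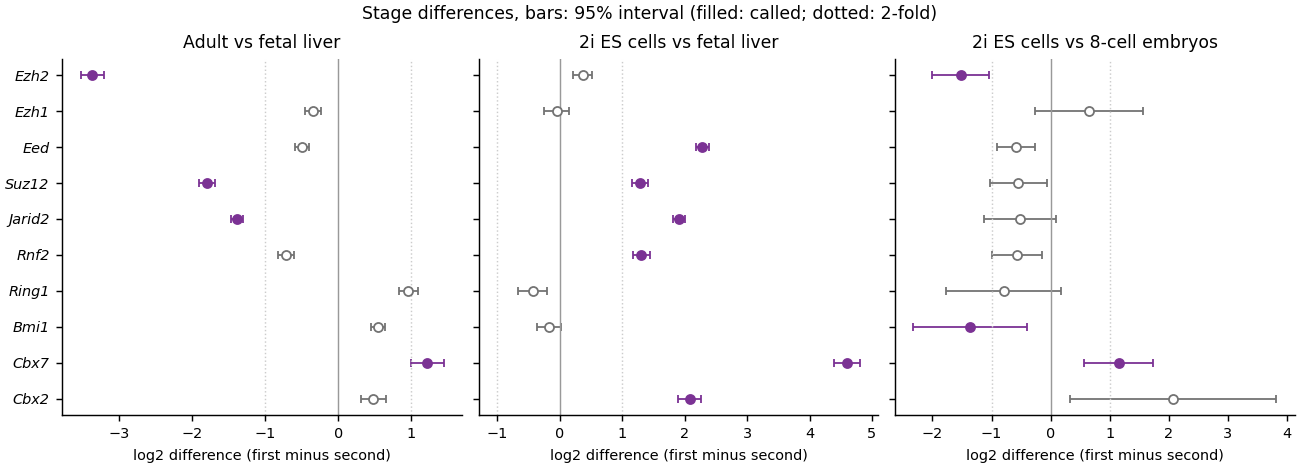
Log2 difference of each Polycomb complex gene in adult against fetal liver, ES cells against fetal liver and ES cells against eight-cell embryos, with bars of the 95% interval from the edgeR fit. Filled points passed an adjusted p of 0.05 and the 2-fold line (dotted). Ezh2 has the most negative value in the left panel (-3.37) and Cbx7 the most positive in the middle panel (4.60), and Ezh1 is unfilled in all.

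Other Polycomb genes were taken from lists of their complexes, chosen with earlier results of these data known. Between the livers no gene of the 4 lists of complex subunits and opposing enzymes was called higher in adult liver by edgeR or DESeq2, with 7 of 38 higher at an unadjusted p under 0.05. Counts for the lists stand beside the share of all genes called, which was 19.4% higher and 23.2% lower in adult against fetal liver. It was 23.8% higher and 32.4% lower in ES cells against fetal liver, and 31.4% higher and 21.5% lower in ES cells against eight-cell embryos. The median log2 difference between the livers was -0.83 for the PRC2 list, -0.78 for canonical PRC1, -0.60 for variant PRC1 and -0.35 for the opposing enzymes, against -0.04 over all genes. Of 8 further PRC2 core and accessory genes, 7 were tested between the livers, and 3 were called lower in adult liver. These were Phf19 (-3.05 on the log2 scale) and Mtf2 (-1.64), Tudor-domain subunits that guide PRC2 to CpG-rich DNA, and the histone chaperone gene Rbbp7 (-2.28). In ES cells against fetal liver 3 of 8 were higher and 2 lower. E130012A19Rik, which RefSeq gives as a synonym of Epop and whose product links PRC2 to elongin, had a mean of 121 CPM in ES cells and 0.806 CPM in fetal livers. Mtf2 was 2.76 higher on the log2 scale and Aebp2 1.01 higher, while Lcor was 2.06 lower and Phf19 1.84 lower. Against eight-cell embryos E130012A19Rik and Rbbp4 were higher in ES cells (3.13 and 2.33) and Aebp2 lower (-1.48).

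Of 9 further canonical PRC1 genes, 4 were called lower in adult than in fetal liver, beside 23.2% of all genes, led by Scml2 (-4.03), Pcgf2 (-2.07) and Cbx6 (-1.47). In ES cells against fetal liver Phc1, a polyhomeotic gene, was 4.07 higher and Pcgf2 1.53 higher, while Phc3 was 1.24 lower. Against eight-cell embryos 4 were higher in ES cells and 0 lower by edgeR, DESeq2 or an unadjusted p under 0.05, with Pcgf2 at a mean of 15.8 CPM against 0.0833, Phc3 at 22.6 against 0.306 and Cbx6 at 30.6 against 1.43 CPM. Within eight-cell embryos only 4 of the 9 genes passed the expression filter. With so few embryo reads, Pcgf2 and Phc3 entered this test through ES cells and could only be called higher, so the absence of lower calls is no result about the list. Of 14 variant PRC1 genes, 3 were lower in adult liver, a share near the background of 23.2%: Auts2 (-3.56), Kdm2b (-1.63), which recruits PRC1 to unmethylated CpG islands, and Bcor (-1.16). In ES cells against fetal liver 5 were higher, led by L3mbtl2 (3.02), Pcgf6 (2.49) and Kdm2b (1.79), and 3 lower, Yaf2 (-1.97), Bcorl1 (-1.97) and Pcgf5 (-1.66). Against eight-cell embryos 2 were higher, Mga (2.65) and L3mbtl2 (1.20), and 4 lower, led by Pcgf5 (-4.75), Pcgf1 (-2.41) and Fbrs (-1.81). Adjusted p-values of these named genes are from the same edgeR fits and were at or below 0.0109.

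Of 9 genes for enzymes that remove Polycomb marks, 8 were tested between the livers and 2 were lower in adult liver, the H3K27 demethylase gene Kdm6a (-1.29) and the deubiquitinase cofactor gene Asxl1 (-1.08). In ES cells against fetal liver the Y-linked Uty was called (-3.59) and no other by edgeR or DESeq2, with 5 of the 9 higher and 2 lower at an unadjusted p under 0.05. Against eight-cell embryos Asxl1 (1.36), Asxl2 (1.03) and Kdm6a (1.02) were higher, and the H2A deubiquitinase genes Usp16 (-2.63) and Mysm1 (-1.14) and the demethylase gene Kdm6b (-1.18) were lower (edgeR adjusted p at most 0.0296). Of known Polycomb targets, the 39 Hox genes summed to 0 to 16.9 CPM in eight-cell embryos, 6.60 to 18.3 in ES cells, 2.89 to 12.2 in adult livers and 5.27 to 24.4 in fetal livers. None passed the expression filter of edgeR between the livers, and DESeq2, which tested more genes, called 1 higher and 3 lower in adult liver. The 8 tested in ES cells against fetal liver gave 3 higher (Hoxc13, Hoxc12 and Hoxb9, at 4.01, 2.65 and 2.11 CPM in ES cells) and 5 lower, led by Hoxb2, Hoxb3 and Hoxa5 (1.28, 0.973 and 1.24 CPM in fetal liver). Of all genes, 23.8% were higher and 32.4% lower there. A gene can pass the filter through its reads in 1 stage alone, so at such low levels these counts of calls say little about the list. Cdkn2a, the Ink4a/Arf gene, had 5.63 to 8.75 CPM in ES cells, at most 0.248 CPM in fetal livers and at most 0.451 CPM in adult livers, and Cdkn2b had 2.77 to 4.09 CPM in ES cells and a median of 0 in both livers, with up to 9.68 CPM in a fetal and 1.32 CPM in an adult liver.

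Within a stage, male and female libraries were compared, and a call needed an adjusted p under 0.1 with a log2 (male/female) beyond 0.5 in either direction. In eight-cell embryos 0 of the 10 genes were called by edgeR or DESeq2, against 0.264% of 9087 genes, and 1 had an unadjusted p under 0.05. That gene was Cbx7, with 17.1 to 38.5 CPM in males and 39.7 to 124 CPM in females. The embryos of the 2 sexes did not overlap, but the log2 (male/female) of -1.11 (standard error 0.341) had an edgeR adjusted p of 0.504, and DESeq2 gave 0.165. In ES cells 0 members were called by edgeR or DESeq2, against 9.5% of genes, and 1 had an unadjusted p under 0.05. That was Rnf2, with 131 and 137 CPM in male and 169 and 171 CPM in female lines (log2 -0.32, edgeR adjusted p = 0.0704). Without male line 2, log2 (male/female) was 0.90 for Ezh1, 0.51 for Suz12, 0.52 for Ring1 and -0.76 for Bmi1. With a lone male line left, these are effect sizes only, and no call is read from them. For Ezh1 the male lines (62.6 and 37.8 CPM) lay further apart than the means of the sexes.

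In fetal liver 0 members were called by edgeR or DESeq2, against 4.64% of genes. An unadjusted p under 0.05 was found for 4 members, all 4 with an edgeR adjusted p under 0.1 and a log2 (male/female) below 0.5 in size. Of all 12930 genes tested, 5235 had an unadjusted p under 0.05, so the members' share was near the background. At an adjusted p under 0.1 alone, 2287 of all genes were higher and 2520 lower in males. Ezh2 had 57.1 to 102 CPM in females with a median of 81.0, and 84.7 to 107 CPM in males with a median of 90.6 (log2 0.22, edgeR adjusted p = 0.0109). The others were Suz12 (0.14, edgeR adjusted p = 0.034), Jarid2 (0.16, edgeR adjusted p = 0.00799) and Ring1 (-0.21, edgeR adjusted p = 0.0473). Reads outside genes moved with sex in these libraries, at 39.9% to 49.0% of counted reads in males and 34.1% to 38.1% in females, with no overlap. With that share in the fit the Ezh2 value was 0.03 (edgeR adjusted p = 0.995), so sex and this share cannot be told apart here.

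In adult liver 1 member was called, Cbx7, against 9.49% of genes. It had 8.20 to 20.5 CPM in females with a median of 9.51, and 3.18 to 11.96 CPM in males with a median of 7.33, so the ranges overlapped. For Cbx7 log2 (male/female) stood at -0.53 (standard error 0.166, edgeR adjusted p = 0.0175), and the value was -0.50 and under the fold threshold without the expression filter. Markers of other cell types also differed in level between the sexes in these livers. The 5 macrophage markers summed to 444 to 978 CPM in females (median 589) and 341 to 597 CPM in males (median 441). The 4 endothelial markers summed to 426 to 517 CPM (median 464) and 357 to 438 CPM (median 413), and the erythroid sum, mostly Alas2, was lower in each female than in each male. Their part in the Cbx7 difference was not tested. In females the log2 ratio of Cbx2 to Cbx7 reads was -0.06 ± 0.446 (SD, n = 12), below the 0.66 ± 0.57 (SD, n = 12) of males (permutation test, two-sided, p = 0.00224, adjusted p = 0.00373 over the 10 tests of this ratio). The Ezh2 median was 9.10 CPM in females and 6.49 CPM in males, and the log2 (male/female) of -0.35 did not pass (standard error 0.166, edgeR adjusted p = 0.118).

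A test of the difference between the livers in log2 (male/female) called 1 of the 10 genes, Ezh2, against 13.7% of genes. Its log2 (male/female) was 0.22 in fetal and -0.35 in adult livers, and the interaction was -0.53 (standard error 0.169, edgeR adjusted p = 0.016). In adult livers the sum of the proliferation markers had a higher median in females, as Ezh2 did, with overlapping ranges. It was 36.8 CPM in females (22.3 to 81.6) and 26.2 CPM in males (17.4 to 44.2). In fetal livers the medians of the sum were 5557 CPM in females (4055 to 6167) and 5347 CPM in males (4527 to 5971). These medians were opposite in direction to Ezh2, with overlapping ranges, and the single markers did not all follow the sum. Mki67 had medians of 3035 CPM in females and 3120 CPM in males, in the direction of Ezh2. Top2a (1009 and 939 CPM) and Mcm5 (229 and 192 CPM) went the other way. The part of these markers in the Ezh2 difference was not tested. The fetal value of Ezh2 rests on libraries in which sex and the share of reads outside genes cannot be told apart. Cbx7 had an interaction of -0.48 (edgeR adjusted p = 0.0995), under the fold threshold.

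**Figure D5:**
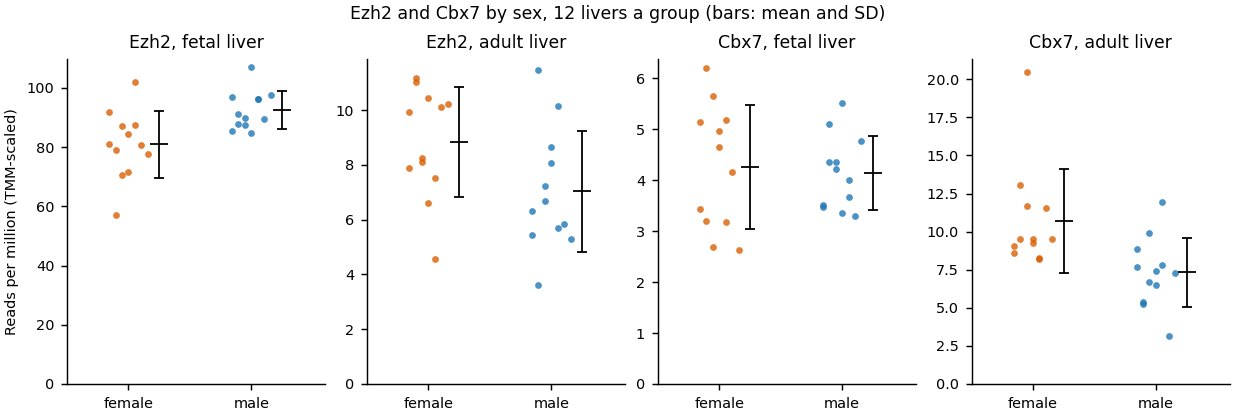
Ezh2 and Cbx7 levels (TMM-scaled CPM, axes from 0) in female and male fetal and adult livers, 12 per group, with the mean and SD beside the points. Ezh2 medians are 81.0 in female and 90.6 in male fetal livers and 9.10 and 6.49 in adult livers, and Cbx7 medians are 9.51 and 7.33 in female and male adult livers, with overlap in every panel.

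Among the other genes of the Polycomb lists, 0 of 30 tested were called between the sexes in eight-cell embryos by edgeR, with 2 at an unadjusted p under 0.05 and 2 called by DESeq2. Of all genes, 0.264% were called by sex in eight-cell embryos and 9.5% in the ES lines, beside 4.64% for fetal and 9.49% for adult livers. In ES cells the calls lower in males were E130012A19Rik (-0.68), Rbbp7 (-0.64), Scml2 (-1.36), Scmh1 (-0.83) and Kdm6a (-0.77), of which Rbbp7, Scml2 and Kdm6a lie on the X chromosome. In fetal liver Kdm6a was lower in males (-0.71), and Phc3 (0.58), Phc1 (0.56), Bcorl1 (0.91), Fbrs (0.70), Auts2 (0.61), Kdm6b (1.07) and Asxl3 (0.81) were higher. With the share of reads outside genes in the fit, 2 of the 9 fetal calls, Kdm6a and the Y-linked Uty, were kept. In adult liver the calls were Kdm6a (-0.52) and Uty. Beside 13.7% of all genes, the interaction of the livers called 5 of these genes, namely Phf19 (-1.22), Fbrs (-0.60), Bcor (-0.51), Kdm6b (-0.65) and Pcgf6 (0.53). Adjusted p-values of the calls in this paragraph were below 0.1 in the edgeR quasi-likelihood test.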

How the data were processed

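RNA was sequenced from 64 C57BL/6 samples: 12 eight-cell embryos, 4 ES cell lines, 24 fetal livers and 24 adult livers. The authors deposited 1 table of read counts per sample, which are whole-number counts per gene with no normalization. Reads had been aligned to mm10 with TopHat2 2.0.4 and Bowtie2 2.1.0, duplicates had been removed with Picard and reads counted with HTSeq, also using SAMtools 0.1.18, as listed in the submitters' processing notes. Whether counting used strand is not given in the sources used here. Embryo RNA was amplified by a single-cell protocol, while the other samples went through a stranded total RNA kit.

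Each table held 23338 genes and 5 tally entries, which were left out of totals and tests. The reads on no gene made up 25.7% to 49.0% of the counted reads in the liver libraries. No 2 libraries had identical counts. Groups were taken from the stage and sex in the labels. The genes examined and all gene lists were chosen with earlier results of these data known. Totals per library set the precision, and a floor of 3 reads stood at 0.289 to 1.91 CPM.

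Each pair of stages was fitted on the libraries of those stages, and each sex comparison within a stage, with the quasi-likelihood test of edgeR 4.0.16 in R 4.3.3. TMM normalization, the default expression filter and robust dispersion were used, and p-values were adjusted by Benjamini-Hochberg over all genes tested. A stage call needed an adjusted p under 0.05 and an absolute log2 difference above 1, a sex call or interaction an adjusted p under 0.1 and an absolute log2 difference above 0.5. Standard errors were the log2 difference divided by the square root of the F statistic. The ratios used 0.5 added to each read count, with exact permutation tests for groups under 10 samples and 100000 resamples otherwise, adjusted over the 10 tests of each ratio. The steps were tested on simulated counts.

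Alternatives were DESeq2 1.42.0, its size factors, library totals, no expression filter, no fold threshold, 1 sex only, 1 fit of all stages, the share of reads on no gene as a covariate, adult livers above 2000000 reads, a replicate block, and leaving out single ES cell lines. Leaving out eight-cell embryo male 1 or female 7 was chosen after seeing the data. Replicate numbers were not taken as pairs in the main fits. The deviations of the 24 same-numbered fetal and adult livers correlated at -0.139 to 0.0733, with none above 0.1. Such values cannot show whether same-numbered samples shared a litter or a batch. Genes named from the lists were the 3 called genes with the largest change in each direction. Exon lengths, positions and overlaps came from the GRCm38 annotation, and promoter windows from RefSeq.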

Additional observations from a re-analysis of the deposited data

Results flagged for a closer look

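In eight-cell embryos, 5 values lay far from the other embryos of the same sex by Dixon's test at the 95% level, out of 26 groups of values tested, and chance alone flags about 1 in 20. Male embryo 1 had 217.4 CPM of Suz12, where the next male had 590.2, and 94.49 CPM of Jarid2, where the next had 415.5. Male embryo 5 had 27.17 CPM of Ring1, against 14.38 in the next male. Female embryo 7 had a log2 ratio of Rnf2 to Ring1 reads of 5.771, against 4.444 in the next female. The same embryo had no Cbx2 read, so that its log2 ratio of Cbx2 to Cbx7 of -10.76, against -4.213 in the next female, follows from the 0.5 added to each count.

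The log2 (male/female) of Ezh2 differed between the livers, with an adult minus fetal value of -0.5258 that was past the threshold in an interaction test. It was 0.22 in fetal and -0.35 in adult livers, and neither value was a call on its own. The part of the proliferation markers in this value was not tested, and the share of reads outside genes was not put in the interaction fit. In fetal livers alone, the sex value of Ezh2 was smaller with that share in the fit, as given above.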

How the results depend on the processing

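Of 1060 alternative values for the genes, 969 kept their direction and their side of the threshold, 17 lost and 46 gained a call, and 28 turned. The ratios kept 176 of 180. The causes were not tested.

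With library totals in place of TMM, adult against fetal liver gave 0 members higher and 5 lower, ES cells against eight-cell embryos 2 higher and 1 lower, adult liver against ES cells 0 higher, and the interaction 2 lower. Of all 12647 genes in adult against fetal liver, 1439 were then higher and 4662 lower. In ES cells against eight-cell embryos 4676 of 12478 were higher and 2139 lower. Adult liver against ES cells had 3224 of 12584 higher, and the interaction 1246 of 13026 lower. Signs turned for Bmi1 (-0.028) and Cbx2 (-0.085) in adult against fetal liver, Ezh1 in ES cells against fetal liver (0.096), Bmi1 in adult liver against ES cells (-0.0021), Ezh1 in adult liver against eight-cell embryos (-0.0085) and Eed between the sexes in ES cells (0.032). With DESeq2, or its size factors in edgeR, ES cells against eight-cell embryos gave 2 higher and 1 lower, and fetal and adult livers against eight-cell embryos 1 and 2 higher. Of all genes, DESeq2 called 4148 higher and 2371 lower of 13773 in the first, and 8271 of 17051 and 7309 of 15845 higher in the others. The size factors in edgeR gave 4607 higher and 2191 lower of 12478, and 7568 of 13288 and 6132 of 11500 higher. Ring1 in fetal liver against eight-cell embryos turned to 0.28 both with DESeq2 and with its size factors. With 1 fit of all 4 stages, ES cells against eight-cell embryos gave 2 members higher, beside 6112 of 15069 genes.

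Without a fold threshold, the members called were 4 higher and 6 lower in adult against fetal liver, 1 lower in ES cells against fetal liver, 4 lower in ES cells against eight-cell embryos, 2 higher in adult liver against ES cells, and 1 and 2 higher in fetal and adult liver against eight-cell embryos. Of all genes, 5485 of 12647 were then higher and 5845 lower in adult against fetal liver, and 6507 of 14333 lower in ES cells against fetal liver. In ES cells against eight-cell embryos 3178 of 12478 were lower, and in adult liver against ES cells 5616 of 12584 were higher. Fetal and adult liver against eight-cell embryos had 7711 of 13288 and 6209 of 11500 higher. Between the sexes the members called were 1 lower in ES cells, 3 higher and 1 lower in fetal liver, 2 lower in adult liver and 3 lower in the interaction. Of all 12930 genes tested by sex in fetal liver, 2287 were then higher and 2520 lower. Lower were also 894 of 12678 by sex in ES cells, 1837 of 10372 in adult liver and 1943 of 13026 in the interaction. Without the expression filter, adult liver had 0 members lower by sex, beside 1003 of 17265 genes.

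In females alone, ES cells against eight-cell embryos gave 0 members higher and 1 lower, beside 3026 higher and 2079 lower of 12782 genes. Ezh1 in adult liver against ES cells was then 0.0068, and Ring1 in fetal liver against eight-cell embryos was 0.083. In males alone, Ezh1 in ES cells against fetal liver was 0.16 and Cbx2 in fetal liver against eight-cell embryos was -0.017. In the latter comparison 1 member was higher, beside 6549 of 13261 genes. With the share of reads on no gene in the fit, fetal values by sex turned for Eed (0.028), Suz12 (-0.067), Jarid2 (-0.018), Rnf2 (-0.16), Bmi1 (-0.10) and Cbx7 (0.19). Without adult livers under 2000000 reads, Eed by sex in adult liver was -0.015. With medians in place of means, the sex difference of Ezh2 to Ezh1 in eight-cell embryos was -0.10.

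Leaving out 1 ES cell line gave 1 to 2 members lower in ES cells against eight-cell embryos, beside 2465 to 2494 of all genes. Between the sexes in ES cells it left a lone line in 1 sex, so only effect sizes are given. Values by sex in ES cells then ran from -0.14 to 0.11 for Eed, from -0.0068 to 0.51 for Suz12, from -0.16 to 0.061 for Jarid2, from -0.76 to 0.027 for Bmi1, from -0.12 to 0.21 for Cbx2 and from -0.095 to 0.0085 for Cbx7. The ES cell minus fetal liver difference in Ezh2 to Ezh1 ran from 0.35 (exact permutation test, adjusted p = 0.0595, without male 2) to 0.68. Without eight-cell embryo male 1 or female 7, an alternative chosen after seeing the data, 2 members were higher in ES cells than in eight-cell embryos. Of all genes, 4035 of 12454 were higher without male 1 and 3894 of 12410 without female 7. Without male 1, Ezh2 by sex in eight-cell embryos was 0.11 (-0.076 without female 7) and Cbx2 in fetal liver against eight-cell embryos was -0.014 (0.042 without female 7). Without female 7, the sex differences in eight-cell embryos were 0.14 for Rnf2 to Ring1 and -0.20 for Cbx2 to Cbx7 (-0.085 and 1.82 without male 1).

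With a replicate block, Ezh2 fell by 3.36 in adult against fetal liver and by 1.10 in ES cells against eight-cell embryos (edgeR adjusted p = 0.0124), and no member call changed under the block. The second block kept only the embryos numbered 1 to 4, all of them male, beside male and female ES cell lines. It had no term for sex. Over all genes, adult against fetal liver gave 2448 higher and 2939 lower with TMM, 1439 and 4662 with library totals, 5028 lower without the expression filter and 4454 lower with DESeq2. By sex, fetal liver gave 493 higher and 107 lower, 5 and 4 with the share of reads on no gene in the fit, and 412 lower without the filter. ES cells gave 434 and 771 by sex, and from 0 to 1474 and from 0 to 1596 without 1 line, while eight-cell embryos gave 4 and 20, and 21 and 59 with DESeq2. Depth limits Ezh2 and Cbx7 in adult liver most, with as few as 8 and 6 reads.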
